A study of Mus musculus with 2 samples.

Results

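The genes described here are 10 components of the NF-kB pathway, chosen by name: the subunits Nfkb1, Nfkb2, Rela and Relb, and the feedback genes Nfkbia, Tnfaip3, Tnip1, Birc3, Bcl3 and Traf1. They are 10 of the 17139 genes listed in both expression matrices, and all 10 passed the expression minimum of 5 CPM, the UMIs of a gene scaled to 1e+06 UMIs, in 1 library or both. The libraries are droplet-based scRNA-seq of endothelial cells (ECs) sorted as live CD45-/CD31+ cells from Lewis lung carcinoma (LLC) tumours grown in adult male C57BL/6 J mice. 1 tumour was injected with 14 µg of cGAMP, the cyclic dinucleotide that binds STING, in 70 µl, and the other with PBS alone. Each library came from 1 mouse, so no difference between them was tested and every 95% interval covers counting error only. The sources differ on the time from injection to sampling, which is 24 h in the methods and 6 h in a supplementary legend, and on the droplet chemistry, which is v3 in the methods and v2 in the labels.

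In resting cells NF-kB dimers of p50, made from Nfkb1, and RelA are held in the cytoplasm by IkBα, the product of Nfkbia. Signals from TNF receptors, Toll-like receptors or STING activate the IKK kinases, which mark IkBα for destruction and free the dimers to enter the nucleus. The slower non-canonical arm runs through p52, made from Nfkb2, and RelB. Many of the genes that NF-kB switches on encode its own brakes, among them IkBα, the ubiquitin-editing enzyme A20 and its partner ABIN1, and in endothelium they are switched on together with adhesion molecules, chemokines and survival factors.

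The PBS library held 2517 ECs with 92081146 UMIs and the cGAMP library 1340 ECs with 63366746 UMIs, at medians of 29780 and 41178 UMIs per cell. Mitochondrial transcripts took a median of 4.49% and 2.87% of the UMIs of a cell. All 6 endothelial markers examined were expressed in both libraries, with Pecam1 at 944 and 824 CPM. The summed level of the leucocyte markers, 8 of 10 of which are listed and none of which is at 0, was 16.3 CPM in the PBS library and 47.8 CPM in the cGAMP library. The libraries shared 1 cell barcode. Of all genes, 9509 passed the minimum, and their log2 ratios of cGAMP over PBS had a median of -0.08.

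None of the 10 genes differed 1.5-fold or more between the libraries when all ECs were summed, in a comparison in which 4.53% of all genes were at least 1.5-fold higher and 7.41% at least 1.5-fold lower in the cGAMP-treated ECs. The log2 ratios ran from -0.47 for Rela to 0.53 for Nfkbia. The 95% interval of the ratio lay above 0 for 5 genes, Nfkbia, Tnfaip3, Tnip1, Birc3 and Traf1, against 31.1% of all genes. It lay below 0 for 3 genes, Nfkb1, Rela and Relb, against 48.0% of all genes. All 5 genes of the first group are feedback genes, and all 3 of the second are subunits, but not all of them stood clear of other genes. The ratio of Relb exceeded that of 38.7% of the genes measured and was -0.03 by the mean of per-cell CPM. That of Birc3 was 0.002 with the proportions of the endothelial states, described below, held at their average. The intervals of Nfkb2 and Bcl3 included 0.

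**Figure D1:**
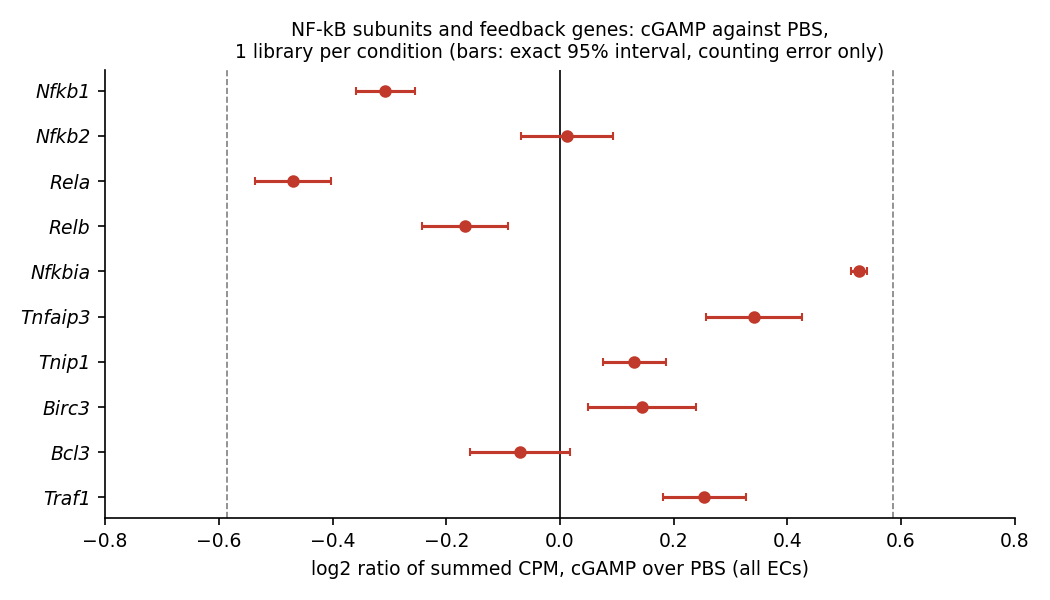
Log2 ratio of summed CPM, cGAMP over PBS, for each of the 10 genes in all ECs. Points are the ratios of 1 library per condition, bars the exact 95% intervals (counting error only), and the dashed lines mark 1.5-fold. Rela is the lowest at -0.47 and Nfkbia the highest at 0.53, and no point passes a dashed line.

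Nfkb1, on chromosome 3 of GRCm38 from 135584655 to 135691547, encodes p105, the precursor of p50. Its level was 90.0 CPM (exact Poisson 95% interval 88.1 to 91.9) in the PBS-treated ECs and 72.7 CPM (70.7 to 74.9) in the cGAMP-treated ECs, a log2 ratio of -0.31 (-0.36 to -0.25). Rela, on chromosome 19 from 5637483 to 5648130, encodes p65, the subunit that carries the transactivation domain of the canonical dimer. It was detected at 59.0 CPM (57.4 to 60.6) and 42.6 CPM (41.0 to 44.2), a log2 ratio of -0.47 (-0.54 to -0.40). Both subunits of the canonical dimer were thus lower in the cGAMP library, and the ratio of Rela was below that of all but 11.7% of the genes measured.

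The subunits of the non-canonical arm stood closer to 0. Relb, on chromosome 7 from 19606217 to 19629438, has a product that pairs with p52 and was at 40.6 CPM (39.3 to 41.9) and 36.2 CPM (34.7 to 37.7), a log2 ratio of -0.17 (-0.24 to -0.09). Nfkb2, on chromosome 19 from 46304320 to 46312385, encodes the p52 precursor p100 and was at 33.0 CPM (31.8 to 34.2) and 33.3 CPM (31.9 to 34.7), a log2 ratio of 0.01 (-0.07 to 0.09). Nfkb2 overlaps AC114539.1 and Psd on the other strand, and Nfkb1 overlaps Gm43430 on its own strand, and whether the counting used strand is not given in the sources used here.

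Among the inhibitors, Nfkbia, on chromosome 12 from 55489410 to 55492647, had 82642 UMIs in the PBS library and 81908 UMIs in the smaller cGAMP library. This corresponded to 897 CPM (891 to 904) and 1293 CPM (1284 to 1301), which is 1.44-fold higher after cGAMP and a log2 ratio of 0.53 (0.51 to 0.54). The ratio exceeded that of 94.4% of the genes measured. Under a median-of-ratios scaling of the libraries, which adds 0.08 to every log2 ratio, the ratio of Nfkbia was 0.60 and passed 1.5-fold. Bcl3, on chromosome 7 from 19808462 to 19822770, encodes an atypical nuclear IkB protein that binds p50 and p52 homodimers and was at 28.9 CPM (27.8 to 30.03) and 27.5 CPM (26.3 to 28.9), a log2 ratio of -0.07 (-0.16 to 0.02). The ratios of the classical and the atypical IkB gene of the group thus lay further apart than their intervals.

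Tnfaip3, on chromosome 10 from 19000910 to 19015657, encodes A20, which edits ubiquitin chains on RIPK1 and other adaptors below the TNF receptor. Its level was 26.7 CPM (25.7 to 27.8) in the PBS library and 33.9 CPM (32.4 to 35.3) in the cGAMP library, a log2 ratio of 0.34 (0.26 to 0.43). Tnip1, on chromosome 11 from 54910785 to 54962917, encodes ABIN1, a ubiquitin-binding partner of A20 that restrains cell death and NF-kB signalling. It was at 67.2 CPM (65.6 to 68.9) and 73.6 CPM (71.5 to 75.8), a log2 ratio of 0.13 (0.08 to 0.19). For Tnip1 this value over all ECs covers states that differed in direction, as described below. Tnip1 overlaps Gm12230 on the other strand.

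Birc3, on chromosome 9 from 7848699 to 7873186, encodes cIAP2, a ubiquitin ligase recruited to the TNF receptor complex through TRAF proteins. It was at 22.7 CPM (21.8 to 23.7) and 25.1 CPM (23.9 to 26.4), a log2 ratio of 0.14 (0.05 to 0.24). Traf1, on chromosome 2 from 34941750 to 34961772, encodes an adaptor that binds TRAF2 and the cIAP proteins and was at 37.0 CPM (35.8 to 38.3) and 44.1 CPM (42.5 to 45.8), a log2 ratio of 0.25 (0.18 to 0.33). Both genes were higher in the cGAMP library by less than 1.5-fold. The ECs of both libraries were also grouped into the states described below, whose proportions differed between the libraries. With each state given its mean proportion over the libraries, the log2 ratio of Nfkbia was 0.36, that of Tnfaip3 0.17, that of Birc3 0.002 and that of Traf1 0.15, all closer to 0 than without this step. Bcl3, at -0.30, Nfkb1, at -0.39, and Tnip1, at 0.25, lay further from 0, while Rela (-0.45), Relb (-0.20) and Nfkb2 (0.01) stayed within their intervals over all ECs.

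The promoters of the feedback genes were read in the windows that RefSeq gives around annotated transcript starts on GRCm38.p6. The RefSeq start of Tnip1 differs from those of its GENCODE transcripts. A window was found for 8 of the 10 genes, all but Nfkb1 and Relb. The kappaB consensus, searched on both strands in the 250 bases before the start, matched in 4 of the 8 genes, Nfkbia, Tnfaip3, Tnip1 and Nfkb2. Tnfaip3 has 2 windows and Nfkb2 has 3, so the 8 genes have 11 windows, of which 6 held a match, against 7.25% of all 32851 windows. All 3 windows of Nfkb2 held a match and 2 of them overlap, so the 11 windows are not independent. The share of all windows counts windows, and no share per gene was computed. The genes were chosen by name as parts of the NF-kB pathway, and the difference from this share was not tested. The core of the interferon-stimulated response element, GAAANNGAAA, matched in 0 of the 11 windows and in 2.98% of all windows. A match describes letters in the window and is not evidence of binding. The promoters of Nfkbia, Tnip1 and Tnfaip3 are shown because these are the feedback genes on which the comparisons turn, each on the strand of the gene from 5′ to 3′, with the matches in capitals. They lie on the minus strand, outside annotated exons, at chr12:55492648-55492897 for Nfkbia, chr11:54962941-54963190 for Tnip1 and chr10:19015411-19015547 for Tnfaip3, where the window was limited to its 137 bases outside exons.
Nfkbia: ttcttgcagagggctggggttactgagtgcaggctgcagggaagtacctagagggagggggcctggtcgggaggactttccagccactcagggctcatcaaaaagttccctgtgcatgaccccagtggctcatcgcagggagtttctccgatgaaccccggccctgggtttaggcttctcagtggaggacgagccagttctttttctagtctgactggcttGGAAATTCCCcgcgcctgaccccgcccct
Tnip1: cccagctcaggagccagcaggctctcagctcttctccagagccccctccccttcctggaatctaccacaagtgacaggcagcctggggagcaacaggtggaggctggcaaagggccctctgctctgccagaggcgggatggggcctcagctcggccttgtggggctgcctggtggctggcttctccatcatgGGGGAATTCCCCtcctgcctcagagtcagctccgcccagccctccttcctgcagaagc
Tnfaip3: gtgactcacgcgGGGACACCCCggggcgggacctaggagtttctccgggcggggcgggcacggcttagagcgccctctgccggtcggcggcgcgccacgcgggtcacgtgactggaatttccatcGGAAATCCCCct
The Nfkbia window held 1 match, whose first base stood at position -29 from the start. In Tnip1 the capitals cover 4 matches that overlap each other, on both strands, from position -58. Tnfaip3 held 3 matches, of which 2 are the same stretch at -125 read on the opposite strands and 1 stood at -12. The matches of Nfkb2 lay in annotated exons.

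Because Nfkbia restrains the dimer that Rela and Nfkb1 form, their UMIs were also set against each other within each library, which removes the scaling of the library from the comparison. There were 15.2 Nfkbia UMIs per Rela UMI in the PBS-treated ECs and 30.3 in the cGAMP-treated ECs, 1.99-fold more, with a log2 ratio of 0.995 (95% interval 0.93 to 1.06). Per Nfkb1 UMI the number was 9.97 and 17.8, a log2 ratio of 0.83 (0.78 to 0.89). Nfkbia and Rela had the highest and the lowest log2 ratio of the group, so no other pair in it could differ more. No background of gene pairs was computed. The direction in each of the 8 clusters described below follows from Nfkbia being higher and both subunits lower in all of them. The log2 ratios of Nfkbia per Rela ran from 0.47 in tip-like (Chga, Cxcr4) ECs to 1.31 in proliferative (Mcm) ECs. Tnfaip3 per Rela went from 0.45 to 0.79 and Tnip1 per Rela from 1.14 to 1.73. In the tip-like states, however, the log2 ratios of Tnip1 per Rela were -0.01 and 0.004. Between the subunits, Nfkb2 per Nfkb1 went from 0.37 to 0.46 and Relb per Rela from 0.69 to 0.85. Within the named states these ratios between subunits were not uniform. The log2 ratio of Relb per Rela was near 0 in both tip-like states, at 0.02 (-0.19 to 0.23) and -0.06 (-0.41 to 0.28), and in proliferative (mitotic) ECs, at 0.04 (-0.20 to 0.28), and its interval also included 0 in stalk-like ECs. The interval of Nfkb2 per Nfkb1 included 0 in both tip-like states and in arterial-like (Lpl, Rbp7) ECs.

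To place the genes in endothelial states, the cells of both libraries were clustered without the 10 genes and without the variable genes that differed 2-fold between the libraries. Of the 8 clusters, 7 had at least 50 cells in both libraries and could be named from markers. There were arterial-like ECs (653 PBS-treated and 269 cGAMP-treated cells), smaller arterial-like ECs led by Lpl and Rbp7 (67 and 53), and stalk-like, venous ECs (342 and 333), whose share of the cells was 13.6% with PBS and 24.9% with cGAMP. Tip-like ECs formed a cluster led by Pgf and Adm (520 and 231) and a cluster led by Chga and Cxcr4 (213 and 82). The 10 leading genes of the latter also held Rsad2 and Ifit2, known interferon-response genes. Among proliferative ECs, a mitotic cluster (493 and 182) was separate from a cluster (183 and 137) with Mcm genes of DNA replication among its leading genes. The eighth, led by Igfbp5 and Ctsh (46 and 53 cells), had raised venous markers but none among its leading genes, was left unnamed and stayed out of the counts of pairs. The name of the arterial-like ECs led by Lpl and Rbp7 is uncertain. Of 13 arterial markers 8 were raised there, but only Gja4 and Cxcl12 were among the 10 leading genes, which also held Lpl and Rbp7, genes known from capillary ECs that take up fatty acids. The name of the proliferative (Mcm) ECs is uncertain too, since 3 of 14 proliferative markers were raised, the minimum, and 1 was among the leading genes. Rebuilt clusters need not be those of the study.

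The stalk-like ECs and the Igfbp5 and Ctsh cluster stood at or near the top for all feedback genes except Tnip1. In the PBS library, Nfkbia ran from 658 CPM in proliferative (mitotic) ECs through 1439.7 CPM in stalk-like ECs to 1945 CPM in the Igfbp5 and Ctsh cluster. In the cGAMP library it ran from 900.4 CPM in arterial-like (Lpl, Rbp7) ECs through 1773 CPM in stalk-like ECs to 2934 CPM in the Igfbp5 and Ctsh cluster. Of the 7 pairs of neighbours in this order, the intervals overlapped for 1 pair in the PBS library and 4 pairs in the cGAMP library, and in both the Igfbp5 and Ctsh cluster and then the stalk-like ECs stood above all other states beyond counting error. Tnfaip3 and Bcl3 had similar orders of states, with the stalk-like ECs high and the tip-like ECs low. Bcl3 was at 56.0 CPM in stalk-like ECs against 17.5 CPM in tip-like (Pgf, Adm) ECs of the PBS library, and at 42.7 CPM in stalk-like ECs against 15.4 CPM in tip-like (Chga, Cxcr4) ECs of the cGAMP library. Tnfaip3 was at 48.9 CPM in stalk-like ECs against 19.7 CPM in tip-like (Pgf, Adm) ECs of the PBS library. For most neighbours in the orders of Tnfaip3 and Bcl3 the intervals overlapped.

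Birc3, Traf1, Nfkb2 and Relb were high in the tip-like ECs led by Chga and Cxcr4 as well as in stalk-like ECs of the PBS library. In those tip-like ECs Birc3 reached 39.0 CPM against 15.3 CPM in proliferative (Mcm) ECs, and Traf1 57.4 CPM against 25.8 CPM. Nfkb2 reached 45.5 CPM there and 17.2 CPM in arterial-like (Lpl, Rbp7) ECs, where it rested on 21 UMIs. Relb was at 59.7 CPM against 30.8 CPM in proliferative (Mcm) ECs. In the cGAMP library the highest level of all 4 genes was instead found in the stalk-like ECs or the Igfbp5 and Ctsh cluster. The intervals of the top states overlapped in both libraries, except for Traf1 in the cGAMP library, where the Igfbp5 and Ctsh cluster at 92.0 CPM (77.1 to 109) stood above the stalk-like ECs at 63.5 CPM (59.5 to 67.7).

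Rela and Nfkb1 were the most even of the 10 over the states. In the PBS library the highest level of Rela over the clusters was 1.40 times the lowest and that of Nfkb1 1.52 times, and in the cGAMP library the spans were 1.43 for both. Every pair of neighbours in the order of Rela had overlapping intervals, in both libraries. Tnip1 had the widest span in the PBS library, 5.75 times, and Tnfaip3 the widest in the cGAMP library, 5.25 times.

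**Figure D2:**
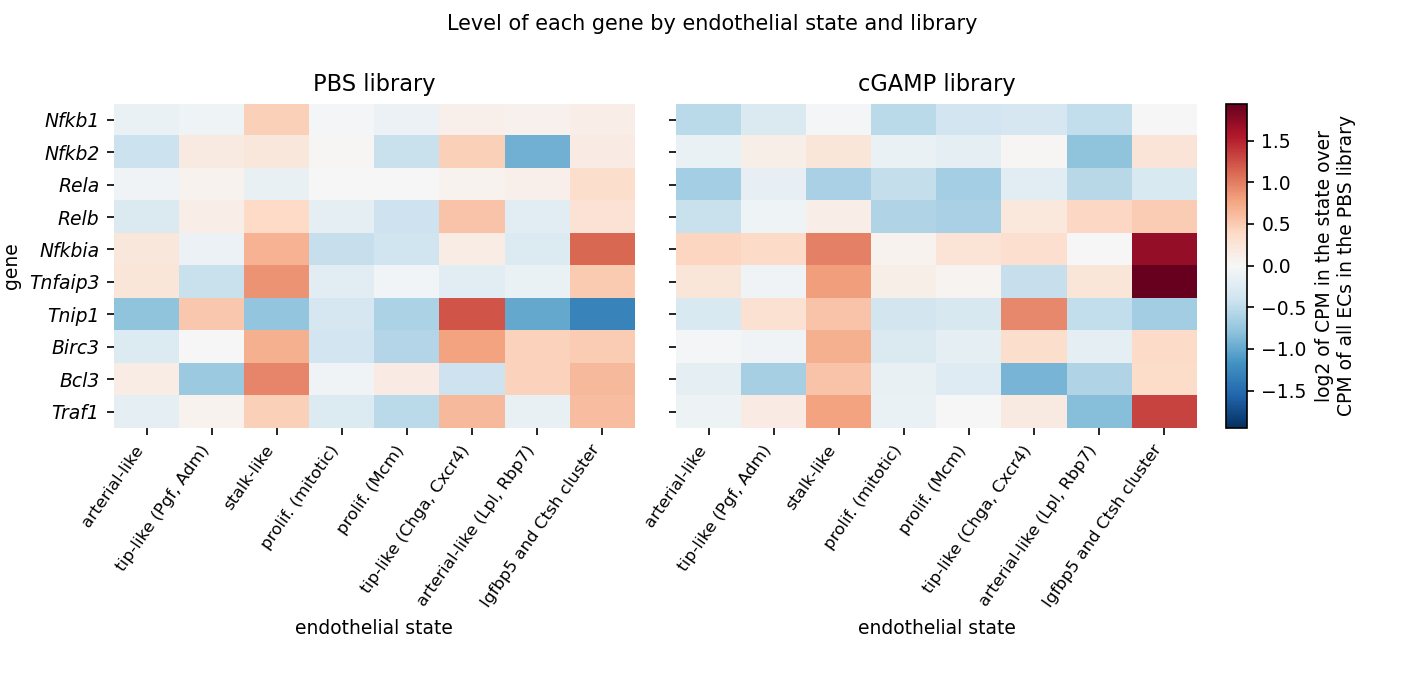
Level of each of the 10 genes in each of the 8 EC clusters, as the log2 of the CPM in the cluster over the CPM of all ECs of the PBS library, so that colours compare states and libraries for 1 gene and not genes with each other. Rows are genes, columns are states, and the panels are the libraries. The stalk-like and Igfbp5 and Ctsh columns are the warmest for Nfkbia, Tnfaip3 and Traf1 in the cGAMP library, while Tnip1 is warmest in the tip-like ECs led by Chga and Cxcr4.

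Within the states, 3 of 70 pairs of gene and state were at least 1.5-fold higher after cGAMP and 6 were at least 1.5-fold lower, where 7.04% and 11.1% of all such pairs of genes and states were. The 3 higher pairs were Tnip1 in stalk-like ECs, Nfkbia in proliferative (Mcm) ECs and Relb in arterial-like (Lpl, Rbp7) ECs. The 6 lower pairs were Rela in 3 states, both arterial-like states and proliferative (Mcm) ECs, and Birc3, Bcl3 and Traf1 in the arterial-like (Lpl, Rbp7) ECs, which were the smallest named state. There the intervals of Birc3 (-1.42 to 0.12) and Traf1 (-1.45 to 0.04) included 0. In that state 13.8% of all genes were at least 1.5-fold higher and 20.4% at least 1.5-fold lower. The interval lay above 0 in 17 pairs and below 0 in 28 pairs, against 20.5% and 28.5% of all pairs.

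Nfkbia was higher and both canonical subunits were lower in all 7 named states, each with an interval that excluded 0. The share of all genes with the same direction in every state was not computed. Within the states the ratio of Nfkbia exceeded that of 72.0% to 96.0% of the genes measured. For Rela this share ran from 6.68% to 26.9%, and for Nfkb1 from 10.0% to 29.3%. The log2 ratio of Nfkbia ran from 0.18 in tip-like (Chga, Cxcr4) ECs (994 to 1126 CPM) to 0.66 in proliferative (Mcm) ECs (683 to 1077 CPM). Rela ran from -0.65 in proliferative (Mcm) ECs to -0.23 in tip-like (Pgf, Adm) ECs, where it was at 62.0 and 52.9 CPM. Nfkb1 ran from -0.57 in arterial-like (Lpl, Rbp7) ECs to -0.20 in tip-like (Pgf, Adm) ECs. The other genes of the group had ratios on both sides of 0, and Bcl3 was lower in 6 of the 7 states.

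**Figure D3:**
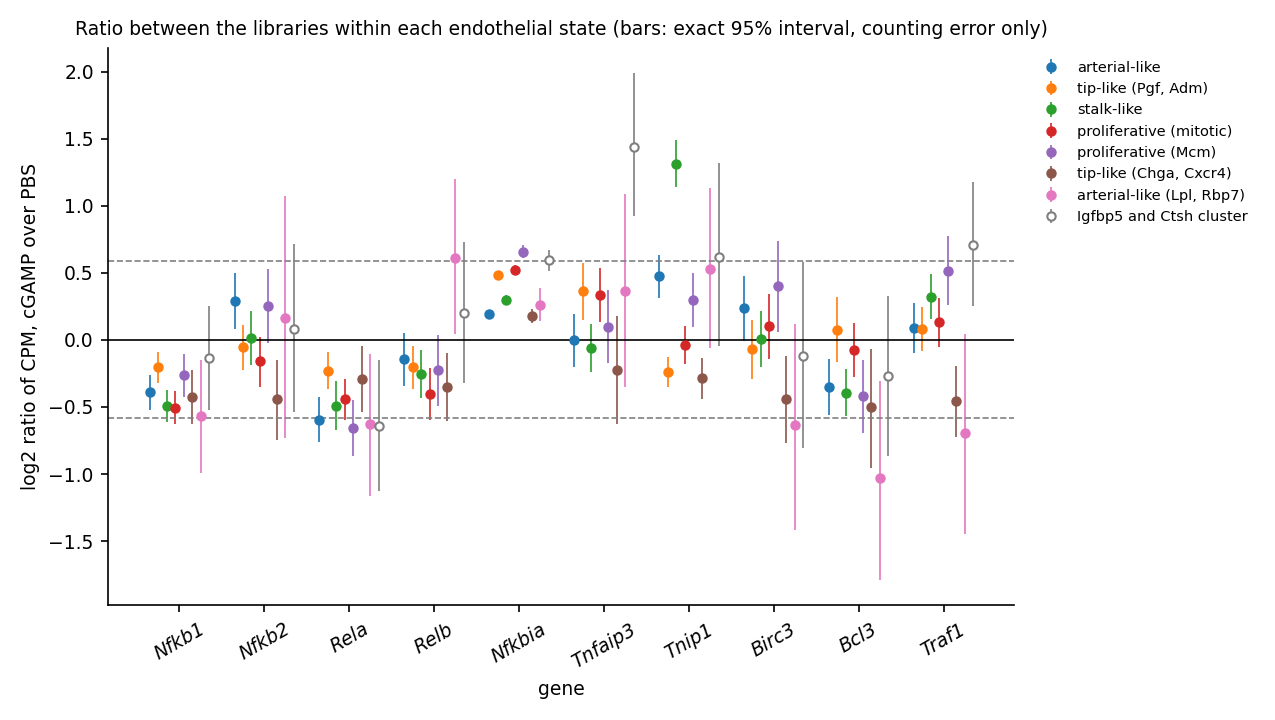
Log2 ratio of CPM, cGAMP over PBS, within each EC cluster for the 10 genes. Points are states, bars exact 95% intervals (counting error only), dashed lines 1.5-fold, and the open grey circles the Igfbp5 and Ctsh cluster, which had fewer than 50 PBS-treated cells. All points of Nfkbia lie above 0 and all points of Rela and Nfkb1 below 0, and Tnip1 in stalk-like ECs stands at 1.31.

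Tnip1 showed the largest ratio among the 70 pairs, and it was singled out after its values were seen. In stalk-like ECs it was at 39.7 CPM (35.5 to 44.2, 327 UMIs) in the PBS library and 98.5 CPM (93.5 to 104, 1443 UMIs) in the cGAMP library, a log2 ratio of 1.31 (1.14 to 1.49). This exceeded the ratio of 98.2% of the genes measured in stalk-like ECs. In arterial-like ECs the levels were 39.3 and 54.5 CPM, a log2 ratio of 0.47 (0.32 to 0.63), and in proliferative (Mcm) ECs 43.9 and 53.9 CPM, a log2 ratio of 0.30 (0.10 to 0.50). In arterial-like (Lpl, Rbp7) ECs the log2 ratio of 0.53 had an interval (-0.06 to 1.13) that included 0. Tip-like ECs, which had the highest Tnip1 levels in the PBS library, had lower summed levels after cGAMP. Those led by Chga and Cxcr4 were at 156 and 128 CPM, a log2 ratio of -0.28 (-0.44 to -0.13), and those led by Pgf and Adm at 97.0 and 82.3 CPM, a log2 ratio of -0.24 (-0.35 to -0.13). The median cells of the tip-like states differed less than these sums. The median tip-like (Pgf, Adm) EC was at 60.5 and 62.2 CPM, and the median tip-like (Chga, Cxcr4) EC at 121 and 107 CPM. The upper quartiles were lower after cGAMP in both states, at 137 and 106 CPM and at 229 and 170 CPM. The shares of thinned cells with a Tnip1 UMI had overlapping intervals. They were 31.4% and 30.4% in tip-like (Pgf, Adm) ECs and 46.7% and 44.4% in the other state. Proliferative (mitotic) ECs, at 53.9 and 52.6 CPM, had an interval that included 0. After cGAMP the stalk-like ECs thus stood among the tip-like ECs for Tnip1, above the tip-like (Pgf, Adm) ECs.

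The stalk-like difference of Tnip1 was spread over many cells. The median PBS-treated stalk-like EC had 0 Tnip1 UMIs and the median cGAMP-treated one 3, at median depths of 21027.5 and 38350 UMIs per cell. The 5% of stalk-like cells with the most Tnip1 UMIs held 31.5% and 20.9% of them. These medians and shares were taken without thinning and also vary with depth. With each cell thinned to 5000 UMIs, a Tnip1 UMI was found in 16.0% of stalk-like ECs of the PBS library (exact 95% interval 12.2 to 20.4) and 34.1% of those of the cGAMP library (29.0 to 39.5). Without thinning the shares were 48.2% and 84.98%. A UMI of Lyz2, a leucocyte gene that ECs should lack, was present in 1.81% and 9.06% of these thinned stalk-like ECs. Both libraries hold ECs alone, so no cell type that should lack Tnip1 shows how much of it lay free in the droplets, and the part of free RNA in the Tnip1 shares was not tested. Under 9 other ways of computing it, chosen after seeing the data, the log2 ratio lay between 0.87 and 1.40. The lowest value came without integration of the libraries, where 96 of the cGAMP-treated stalk-like ECs remained with 208 of the PBS-treated ones in a cluster at 35.0 and 64.0 CPM. A further 221 of them formed a cluster that held 338 cGAMP-treated and only 15 PBS-treated cells, at 97.1 CPM in the former.

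**Figure D4:**
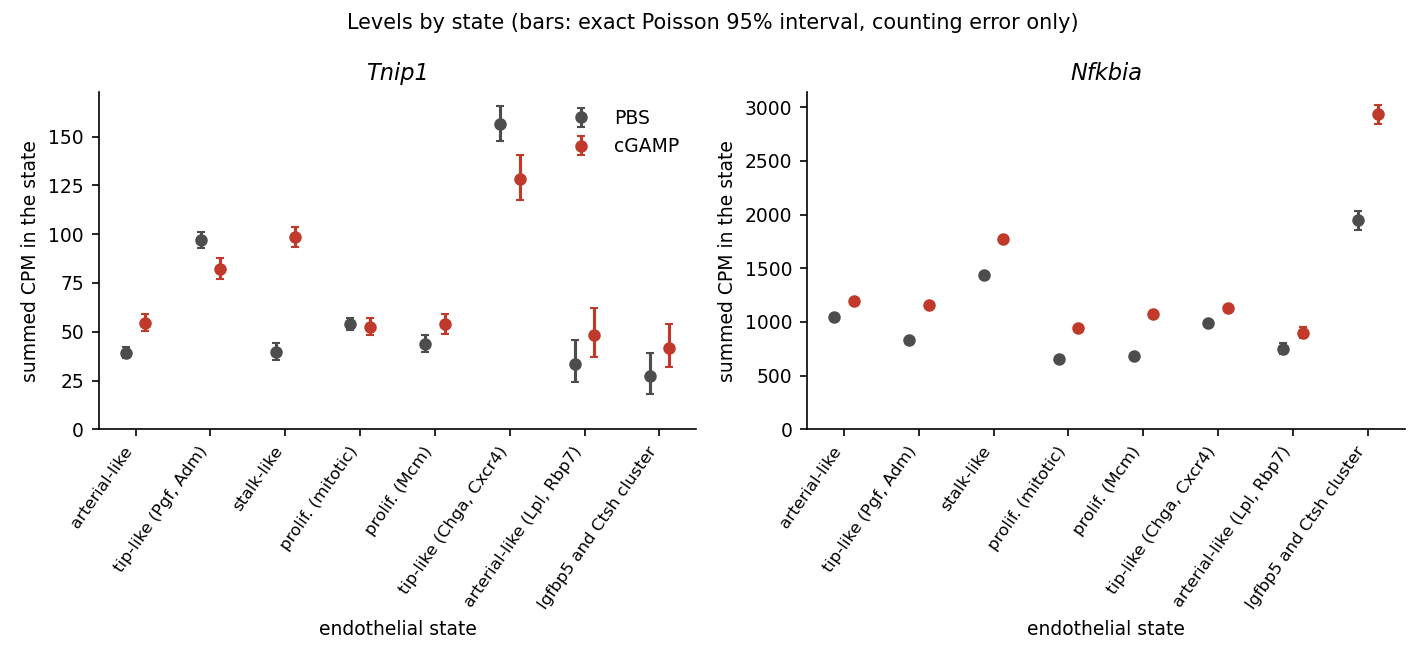
Summed CPM of Tnip1 (left) and Nfkbia (right) by EC state in the PBS library (grey) and the cGAMP library (red), with exact Poisson 95% intervals (counting error only). Tnip1 stands at 39.7 and 98.5 CPM in stalk-like ECs and is lower after cGAMP in both tip-like states, whereas Nfkbia is higher after cGAMP in every state.

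Relb in the arterial-like (Lpl, Rbp7) ECs was at 35.2 CPM in the PBS library and 53.9 CPM in the cGAMP library. The log2 ratio of 0.61 (0.05 to 1.20) rested on 43 and 70 UMIs and exceeded that of 87.1% of the genes measured there. In the other 6 named states Relb was lower after cGAMP, by log2 ratios from -0.40 to -0.15. The lowest ratio among the pairs belonged to the same state, where Bcl3 was at 39.3 and 19.2 CPM, a log2 ratio of -1.03 (-1.79 to -0.30) from 48 and 25 UMIs. In the Igfbp5 and Ctsh cluster, Tnfaip3 was at 37.9 CPM (26.9 to 51.8) and 103 CPM (87.1 to 121), a log2 ratio of 1.44 (0.93 to 1.99) from 39 and 150 UMIs in 46 and 53 cells. Traf1 in this cluster was at 56.4 and 92.0 CPM, a log2 ratio of 0.71 (0.25 to 1.18), and Nfkbia had a log2 ratio of 0.59. In the stalk-like ECs, whose markers this cluster shared, Tnfaip3 was at 48.9 and 46.9 CPM.

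Across all ECs, the shares of thinned cells with a UMI moved like the summed levels for most genes. Nfkbia was found in 90.6% of PBS-treated ECs (89.4 to 91.8) and 94.8% of cGAMP-treated ECs (93.5 to 95.9), so nearly every cell contributed. The share with a Rela UMI was 25.3% (23.6 to 27.1) and 19.5% (17.4 to 21.8), and the share with a Nfkb1 UMI was 33.3% (31.5 to 35.3) and 31.3% (28.8 to 33.8), where the intervals overlapped. Tnip1 was found in 21.8% (20.2 to 23.5) and 27.7% (25.3 to 30.2) of thinned cells, Traf1 in 16.5% (15.1 to 18.1) and 21.0% (18.9 to 23.3). Without thinning every share was higher in the deeper cGAMP-treated cells, Rela included, at 74.2% and 75.4%. For Lyz2 the thinned shares were 2.17% and 6.18%. The median cell showed these directions too, with Nfkbia at 749 and 1109.6 CPM and Rela at 49.7 and 36.6 CPM in the PBS and cGAMP libraries.

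Genes with the most similar pattern over the 7 named states were sought among 6044 candidate genes reaching 20 CPM. The measure was the Pearson correlation of log2(CPM + 5) within each library, of which the smaller counted. With 7 points that share library, depth and clustering, and each closest gene the best of all candidates, these values are a description. Closest to Nfkbia was the chemokine Cxcl1 (0.94 in the PBS and 0.91 in the cGAMP library), closest to Tnfaip3 was Piezo1 (0.97 and 0.98), a mechanically gated ion channel, and closest to Bcl3 was Rcan1 (0.96 and 0.97), an inhibitor of calcineurin. Tnip1 was closest to the ubiquitin-conjugating enzyme Ube2d1 (0.94 and 0.93), and Traf1 to Fam241a (0.96 and 0.95). For the subunits the leading genes were Zfp521 for Nfkb1 (0.85 and 0.90), the transcription factor Sox4 for Nfkb2 (0.93 and 0.94), Arpc5 for Rela (0.92 and 0.93) and Atxn3 for Relb (0.94 and 0.94). Among pairs of the 10 genes, Tnfaip3 and Bcl3 were alike in both libraries (0.86 and 0.91), as were Birc3 and Traf1 (0.89 and 0.79). Relb and Traf1 were alike in the PBS library only (0.98 and -0.05), and Rela ran opposite to Tnfaip3 in both (-0.87 and -0.68). All neighbours in the order of Rela had overlapping intervals, as given above, which also limits its likeness to Arpc5.

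The surrounding pathway was described with gene lists written from general knowledge. Of 24 receptor and adaptor genes, 10 were higher and 14 lower after cGAMP, with a median log2 ratio of -0.03, and only Cd40 passed 1.5-fold, from 3.41 to 6.19 CPM. Tnfrsf1a, which encodes the receptor TNFR1, was at 185 and 191 CPM, a log2 ratio of 0.04, and Myd88 and Birc2 followed Cd40 at 0.51 and 0.42. The lowest were Tnfrsf1b (-0.28), Tab2 (-0.27) and Traf5 (-0.24). The ligand gene Tnf itself was at 1.49 and 2.59 CPM, under the minimum of 5 CPM. The IKK genes Ikbkb (0.01), Ikbkg (0.04) and Chuk (0.07) all lay near 0. Under the median-of-ratios scaling, which puts the median gene at 0, the receptor and adaptor genes divided the other way, with 14 higher and 10 lower and a median of 0.05.

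Of the 5 other Rel and IkB genes, Nfkbid passed 1.5-fold, from 14.8 to 22.2 CPM (log2 ratio 0.59), and Nfkbib (0.32) and Nfkbiz (0.18) were also higher. Rel (-0.07) and Nfkbie (-0.19) were lower, and the median was 0.18. Among 11 other brakes of the pathway the median was -0.03, with 4 higher and 7 lower, and Pdlim2, whose product targets nuclear p65 for destruction, was the only one past 1.5-fold, from 41.8 to 23.9 CPM (-0.81). Tank (-0.44) and Itch (-0.38) followed, and the highest were Zc3h12a (0.21), Tnip2 (0.16) and Rnf11 (0.12). Under the median-of-ratios scaling 6 of these 11 were higher and 5 lower, and 4 of the 5 other Rel and IkB genes were higher, Rel among them.

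The known endothelial targets of NF-kB differed more than the pathway itself. Of 22 such genes, 19 were higher and 3 lower, 11 were at least 1.5-fold higher, against 4.53% of all genes, and none 1.5-fold lower, and the median log2 ratio was 0.57. The largest ratios were those of the chemokine Ccl5 (6.15), the cytokines Csf3 (4.22) and Il6 (from 32.9 to 92.8 CPM), and the lowest those of Csf1 (-0.12), Ripk2 (-0.05) and Cflar (-0.01). Nfkbia, at 0.53, lay just under the median of these targets, and the other 9 genes of the group lay further below it. Within the 7 named states the median of the targets was lower than this in all but the tip-like (Pgf, Adm) ECs, at 0.58, and ran down to 0.18 in tip-like (Chga, Cxcr4) ECs. The number past 1.5-fold ran from 4 of 21 genes in arterial-like ECs, where 6.28% of all genes were, to 11 of 22 in proliferative (mitotic) ECs, where 4.58% were. From 1 to 2 targets were at least 1.5-fold lower in both arterial-like states and in tip-like (Chga, Cxcr4) ECs. The list also holds Selp, Sele and Csf3, which are leading genes of the stalk-like ECs, the state that made up more of the cGAMP library. Some of the targets, Ccl5 and Cxcl10 among them, are also known interferon-response genes.

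**Figure D5:**
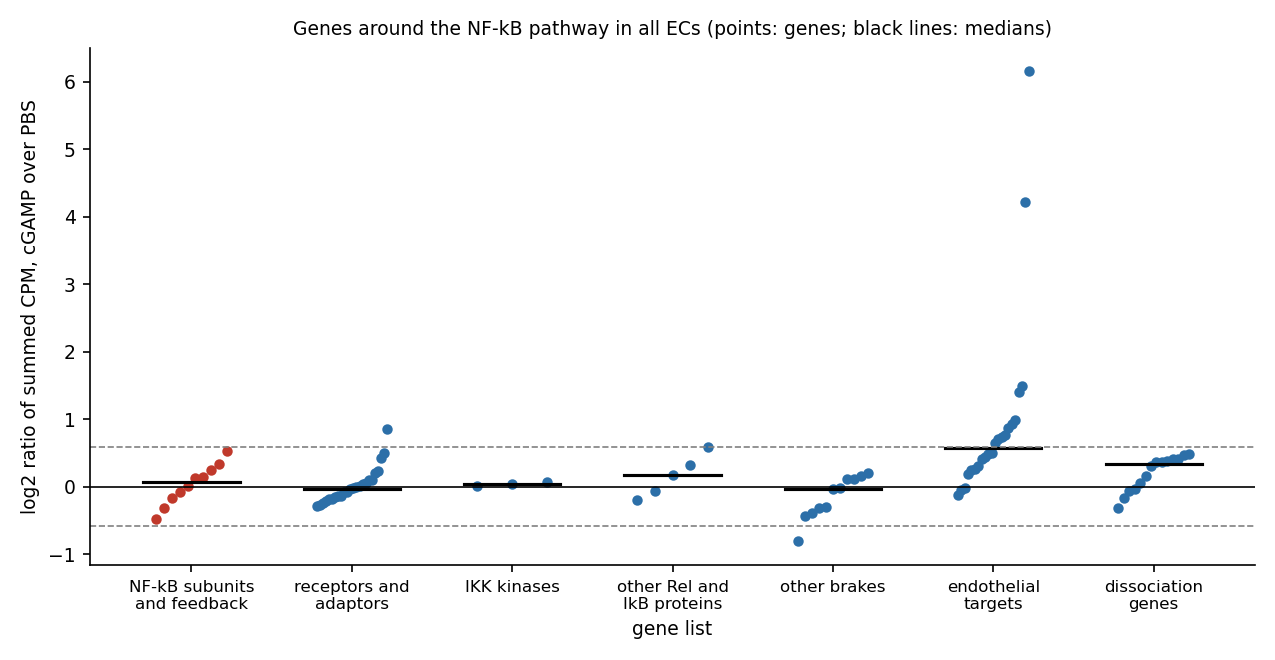
Log2 ratio of summed CPM, cGAMP over PBS, in all ECs for the 10 NF-kB subunits and feedback genes (red) and for the genes of the 6 other lists that passed the minimum (blue). Points are genes, black lines list medians and dashed lines 1.5-fold. The endothelial targets have a median of 0.57 and reach 6.15, while the receptors, kinases and other brakes have medians between -0.03 and 0.04.

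Nfkbia and immediate-early genes are also known to be induced when tissue is dissociated for sorting. Of 14 such dissociation genes, 10 were higher and 4 lower after cGAMP, with a median log2 ratio of 0.33, and none passed 1.5-fold. The highest were Zfp36 (0.49), Nr4a1 (0.47) and Hspa1a (0.42), and the lowest Btg2 (-0.31), Fosb (-0.16) and Jun (-0.06). Their summed level was 5299 CPM in the PBS library and 5920 CPM in the cGAMP library. In stalk-like ECs their sum was 7922 and 6776 CPM with a median of -0.02, and the ratio of Nfkbia was 0.30. In arterial-like ECs their sum was 7303 and 6855 CPM with a median of 0.02, and the ratio of Nfkbia was 0.19. In proliferative (Mcm) ECs the median of the dissociation genes was 0.45 and the ratio of Nfkbia 0.66. These values were 0.35 and 0.52 in proliferative (mitotic) ECs and 0.24 and 0.48 in tip-like (Pgf, Adm) ECs. They were 0.01 and 0.18 in tip-like (Chga, Cxcr4) ECs and -0.07 and 0.26 in arterial-like (Lpl, Rbp7) ECs. The part of the dissociation genes in the ratios of Nfkbia was not tested. Leucocyte transcripts were higher in the cGAMP library, as given above. In ECs without a UMI of 5 leucocyte markers the log2 ratio of Tnip1 in stalk-like ECs was 1.29. This filter kept 2386 of 2517 PBS-treated ECs and 950 of 1340 cGAMP-treated ECs. Cells with a Lyz2 UMI remained, since 13.5% and 38.4% of all ECs held one without thinning. The part of leucocyte RNA in the Tnip1 ratio was not tested.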

How the data were processed

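The scRNA-seq libraries of PBS-treated and cGAMP-treated ECs, 1 mouse each, were analysed from the matrices that the authors deposited. Reads were aligned by the authors with Cell Ranger 3.0.0 (mm10). In Seurat 3.1.1 they kept cells with at least 500 genes and at most 10% mitochondrial UMIs, kept genes detected in 3 or more cells, and discarded Pecam1-negative clusters. The deposited values are natural log values: each gene's UMIs were scaled to 10000 per cell and 1 was added before the logarithm. UMI counts were recovered from them by exponentiation and division by a cell's smallest step, after which 100% of nonzero values lay within 0.01 of whole numbers. Removal of cells could not be repeated, no doublets were removed, and reads that 2 overlapping genes share were counted as deposited.

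UMIs were summed over cells and scaled to the total (CPM), with exact Poisson intervals, exact binomial intervals for log2 ratios between libraries, and intervals from the normal approximation of the log ratio for ratios between genes. For shares of cells, each cell was thinned to 5000 UMIs, which left out 70 and 13 cells, and intervals are Clopper-Pearson. All intervals cover counting error only. On counts for 9509 genes simulated from a Poisson distribution, which the intervals of the ratios assume, 95.2% of these held the true ratio. The spread between cells and between mice was not simulated.

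Clustering used Seurat 5.3.0 (R 4.3.3) on 2500 variable genes of which 1790 were kept, with integration anchors, 30 principal components and Louvain resolution 0.5, since the resolution is not given in the sources used here. A cluster was named from at least 3 markers raised 2-fold, with 5 CPM added, and from its 10 leading genes. The genes and lists were chosen with earlier results of these data known. All 10 genes are named, with up to 3 genes in each direction per list, Tnf and Tnfrsf1a, the ligand and receptor, and the genes most alike. Ikbkb, Ikbkg, Chuk, Cxcl10, Sele and Selp were also named after their values were seen. Gene coordinates are from the GENCODE annotation of GRCm38. Alternatives were other scaling, averaging, thinning, cell filters, state proportions, clusterings and thresholds.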

Additional observations from a re-analysis of the deposited data

Results flagged for a closer look

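Tnip1 in stalk-like ECs stood out because it was 1.5-fold or more higher after cGAMP there, at a log2 ratio of 1.31, while it was lower, with an interval below 0, in both tip-like states. Relb was flagged in the same way in the arterial-like (Lpl, Rbp7) ECs, at a log2 ratio of 0.61 from 43 and 70 UMIs. Its interval lay below 0 in 4 other states. In the arterial-like (Lpl, Rbp7) ECs, however, 13.8% of all genes were at least 1.5-fold higher. With 1 mouse per condition, the difference between the states was not tested for either gene.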

How the results depend on the processing

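The count of genes at least 1.5-fold higher over all ECs was 0 and became 1 (Nfkbia) under median-of-ratios scaling, and no alternative gave a gene 1.5-fold lower. Of the 10 log2 ratios, those of Nfkb2 and Bcl3, whose intervals included 0, were the only ones to change sign under any of 7 alternatives. The number of pairs of gene and state at least 1.5-fold higher was 3. It was 5 without integration, 6 under median-of-ratios scaling, 7 with at least 20 cells per state and 1 at a 2-fold threshold. The number at least 1.5-fold lower was 6. It was 1 at Louvain resolution 0.3, 3 without integration, 1 with all 2500 variable genes, 2 under median-of-ratios scaling and 1 at a 2-fold threshold. These counts are over 40 to 90 pairs, as the clusters differ in number. No replicate could be left out and no paired analysis was possible because each condition has 1 library. Low counts limit the arterial-like (Lpl, Rbp7) ECs, where 5 of the 10 genes had under 50 UMIs in both libraries.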
